A study of Mus musculus with 4 samples.

Results

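Sprr1a was followed across 4 RNA-seq libraries, each from bulk RNA of fibroblasts grown from mouse prostates, as 1 gene of the 56748 in the deposited count table. It was picked from the count table itself, for its high ratios in the BuOE libraries against the PBS libraries, so its levels and ratios describe these libraries and carry no test. The libraries were, by their labels, BuOE, PBS, BuOE with radiation and PBS with radiation, with 1 library for each condition. All cells came from male C57BL/6 mice aged 8 to 10 weeks, whose genotype label reads CB57BL/6. The irradiated mice received 37.5 Gy to the pelvis, split into doses of 7.5 Gy over 5 days at 1.2 Gy/min, with lead over the rest of the body. Minced prostates were digested with collagenase, and what grew out in medium with serum gave the RNA. BuOE stands in the chemical name of the manganese porphyrin in the series title, a mimic of superoxide dismutase. The dose and timing of BuOE, whether mice or cultures received it, and the number of mice behind a library are not given in the sources used here.

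Sprr1a encodes small proline-rich protein 1A, a precursor of the cornified envelope, the layer of cross-linked protein that forms under the membrane of a differentiating squamous epithelial cell. Transglutaminases join such precursors to one another, and the gene lies among its relatives in the epidermal differentiation complex, a cluster of genes for squamous differentiation. In mice and rats Sprr1a is also known as a gene induced by injury: it appears in sensory neurons after axon damage and in heart muscle cells under stress, where cytokines that signal through gp130 induce it. AP-1 and ETS factors are known regulators of SPRR promoters.

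The sequence before the gene's start is shown because AP-1 and ETS genes are among those followed below, and Sprr1b is shown beside it as the closest relative in name, which was almost silent in these cultures. The lines give the 250 bases upstream of the RefSeq start, 5′ to 3′ in the direction of transcription, from build GRCm38.p6. The Sprr1a window is chr3:92485882-92486131 and the Sprr1b window chr3:92438780-92439029, both on the minus strand. Capitals mark matches on either strand to the AP-1 motif TGANTCA, the ETS core AGGAA or the TATA motif TATAAA, none of which overlap here.
Sprr1a: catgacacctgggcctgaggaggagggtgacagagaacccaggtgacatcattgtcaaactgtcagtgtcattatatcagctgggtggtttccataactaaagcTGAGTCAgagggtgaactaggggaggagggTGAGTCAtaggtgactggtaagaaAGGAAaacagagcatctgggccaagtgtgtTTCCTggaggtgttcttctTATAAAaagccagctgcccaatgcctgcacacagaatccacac
Sprr1b: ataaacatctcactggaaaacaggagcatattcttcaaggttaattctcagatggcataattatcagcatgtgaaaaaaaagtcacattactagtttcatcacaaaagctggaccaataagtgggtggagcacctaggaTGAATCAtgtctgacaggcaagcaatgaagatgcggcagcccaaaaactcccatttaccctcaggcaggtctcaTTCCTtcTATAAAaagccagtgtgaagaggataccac
The Sprr1a window held TGANTCA at 2 places, which begin 146 and 116 bases before the start. At least 1 match to this motif was found in 6.75% of the 32851 RefSeq windows of the same length, and at least 2 in 0.338%. The Sprr1a window also held AGGAA at 2 places (at least 1 match in 60.3% of windows) and TATAAA once (12.4% of windows). Sprr1b had TGANTCA once, in the form TGAATCA. Of the 14 SPRR genes with a window, 9 held TGANTCA and 10 held TATAAA. A match describes letters in this window and says nothing about binding in these cells.

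Sprr1a was the most abundant SPRR gene per length in every library, and its level differed between all 4 libraries beyond counting error. The count was 5772 reads in the BuOE library, against 1062 in the PBS library. With radiation it was 22047 reads in the BuOE library, against 3971 in the PBS library. Scaled to CPM, the count relative to library size, with TMM factors that correct for differences in library composition, the level was 189.9 CPM in the BuOE library (185 to 195), against 35.8 CPM in the PBS library (33.7 to 38.0). It was 934 CPM in the irradiated BuOE library (922 to 947), against 109.7 CPM in the irradiated PBS library (106 to 113). The ranges are exact 95% Poisson intervals of the counts, which cover counting error only. The order from low to high was therefore PBS, irradiated PBS, BuOE and irradiated BuOE, and no neighbouring counting intervals in that order overlapped. The spread between animals or cultures is unknown, because each condition had 1 library. In bulk RNA, more cells that express a gene and more RNA per cell cannot be told apart.

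Per kilobase of exon, the gene reached 236 CPM in the BuOE library, against 44.4 in the PBS library, and 1159 with BuOE and radiation, against 136 with PBS and radiation. The annotated exons of Sprr1a cover 806 bases. Among 14255 genes averaging 1 CPM or more, each with an annotated length, that placed Sprr1a at rank 111 in the BuOE library, against rank 985 in the PBS library. In the irradiated BuOE library it held rank 15, against rank 254 in the irradiated PBS library. It took 0.0882% of all counted reads in the irradiated BuOE library, against 0.0111% in the irradiated PBS library.

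The first question is how Sprr1a differed between BuOE and PBS cultures. Without radiation it was 5.31-fold higher in the BuOE library than in the PBS library, a log2 ratio of 2.41 (2.31 to 2.50). With radiation it was 8.52-fold higher in the BuOE library than in the PBS library, a log2 ratio of 3.09 (3.04 to 3.14). Intervals of ratios are exact 95% binomial intervals of the 2 counts and again cover counting error only. Among the 9877 genes averaging 10 CPM or more, Sprr1a had the highest of all ratios between the irradiated libraries and ranked 66 between the unirradiated ones. Both ratios were at least as high as those of Sprr1a in 6 other genes, and each of these had a mean of at most 6.67 CPM. The ratio in the irradiated pair exceeded that in the unirradiated pair by 0.68 (0.58 to 0.79), a difference reached by 7.11% of the 14366 genes averaging 1 CPM or more. The interval of this difference is a 95% normal approximation from the 4 counts and covers counting error only. Scaled by the summed epithelial markers described below, this difference was 0.27. Since the gene was chosen for these ratios, they were not tested.

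The second question is how it differed with radiation. In the PBS arm Sprr1a was 3.07-fold higher after radiation than without it (1.61, 1.52 to 1.72), which ranked 87 among the 9877 genes averaging 10 CPM or more. In the BuOE arm it was 4.92-fold higher in the irradiated library (2.30, 2.26 to 2.34), which ranked 7 among them. The irradiated BuOE library stood 26.1-fold above the PBS library (4.70, 4.62 to 4.80). Sprr1a was therefore higher in the BuOE library of both pairs and in the irradiated library of both arms.

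**Figure D1:**
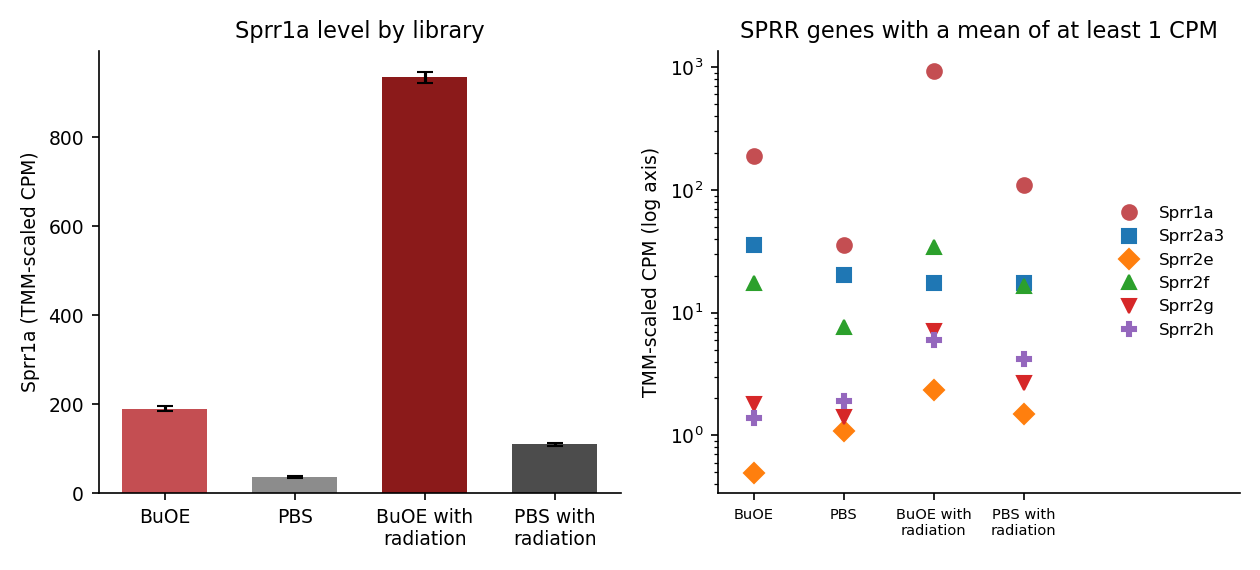
Left, bars give the TMM-scaled CPM of Sprr1a in each library, with exact 95% Poisson intervals as error bars. Right, points give the SPRR genes averaging 1 CPM or more on a log axis; Sprr1a lies above the other members in every library, from 35.8 CPM in the PBS library to 934 CPM in the irradiated BuOE library.

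The level of Sprr1a was not matched by its family. Of the 15 SPRR genes, all had at least 1 count, but only 6, including Sprr1a, averaged 1 CPM or more. Sprr1b had 6 counts in the BuOE library, 3 in the PBS library, 0 in the irradiated BuOE library and 5 in the irradiated PBS library. Sprr3, a precursor of internal squamous epithelia, had at most 2 counts in any library, and Sprr4 had 1 count in all. For comparison, a floor of 3 counts equals 0.0987 CPM in the BuOE library, 0.101 in the PBS library, 0.127 in the irradiated BuOE library and 0.0829 in the irradiated PBS library. None of the 757 runs of 50 bases in the annotated Sprr1a transcript occurred, in the same orientation, in a transcript of another gene in the annotation used here. Its reads of that length thus had no second source among those transcripts in that orientation. The opposite orientation was not searched. For Sprr2a1 and Sprr2a2 the shared portion was 96.3% and 96.5%, and for Sprr2a3 it was 61.1%, which makes the counts of these 3 genes uncertain. Sprr2a1 had at most 19 counts and Sprr2a2 at most 14 in any library.

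Sprr2f, another envelope precursor, was the member nearest to Sprr1a per length. It stood at 28.6 CPM per kilobase in the BuOE library, against 12.5 in the PBS library, and at 56.3 with BuOE and radiation, against 26.9 with PBS and radiation. Its log2 ratio was 1.19 (0.97 to 1.42) between the unirradiated libraries and 1.06 (0.91 to 1.22) between the irradiated ones, so like Sprr1a it was lowest in the PBS library and highest in the irradiated BuOE library, with smaller ratios. Sprr2g stood at 7.08 CPM in the irradiated BuOE library, against 2.65 in the irradiated PBS library (1.39, 1.05 to 1.79). Between the unirradiated libraries the interval of Sprr2g included 0 (0.34, -0.25 to 0.97).

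Sprr2h and Sprr2e were not higher in the BuOE library of the unirradiated pair. Sprr2h had a ratio of -0.46 (-1.09 to 0.13) between the unirradiated libraries and 0.49 (0.16 to 0.84) between the irradiated ones. Sprr2e, from 15 counts in the BuOE library and 32 in the PBS library, had -1.03 (-2.12 to -0.20), and 0.62 (0.08 to 1.21) between the irradiated libraries. Sprr2a3 had 35.7 CPM in the BuOE library, against 20.4 in the PBS library, and 17.4 CPM with BuOE and radiation, against 17.3 with PBS and radiation. Counted without Sprr1a, 1 of the 5 measured relatives was 2-fold or more higher and 1 lower by as much in the BuOE library than in the PBS library, where 8.93% of all genes were 2-fold higher and 4.13% lower. In the irradiated BuOE library 2 were 2-fold higher and 0 lower than in the irradiated PBS library, against 4.47% and 5.31% of all genes. With radiation 2 were 2-fold higher and 0 lower in the PBS arm, against 5.55% and 1.02% of all genes, and 3 were higher and 1 lower in the BuOE arm, against 2.56% and 4.68%. By library size alone the genes called in the BuOE arm were 232 higher and 855 lower, against 368 and 672 with TMM. None reached the ratio of Sprr1a in any of these 4 comparisons.

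The other low members give little beyond their counts. Sprr2b had 25 counts in the BuOE library, 6 in the PBS library, 3 in the irradiated BuOE library and 0 in the irradiated PBS library. Sprr2d had 5, 0, 17 and 4 counts in the BuOE, PBS, irradiated BuOE and irradiated PBS libraries. Sprr2k had at most 9 counts and Sprr2i at most 2 in any library. Neither Sprr2b nor Sprr2d reached the mean of 1 CPM at which ratios were read.

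Most genes around Sprr1a on the chromosome were nearly silent. Of the 10 protein-coding genes on either side of Sprr1a in the RefSeq order, 20 in all, 12 had at most 10 counts in every library and 5 averaged 1 CPM or more. In the whole table, which also holds genes not coding for protein, 14366 of 56748 averaged 1 CPM or more. The share among the neighbours was close to that. Sprr3 and Sprr4, the immediate neighbours, were the near-silent genes described above. Ivl, which encodes the envelope scaffold involucrin and lies beyond Sprr4, had 21.4 CPM in the BuOE library, against 15.7 in the PBS library, and 32.3 CPM with BuOE and radiation, against 27.2 with PBS and radiation. Its log2 ratios of 0.45 (0.27 to 0.62) and 0.24 (0.11 to 0.38) were far below those of Sprr1a. Of the late cornified envelope genes among these neighbours, the 6 named Lce1 had no count in any library and Lce6a had at most 11.

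Genes of the cornified envelope programme were mostly at or near 0. Of 35 precursors and enzymes, 9 averaged 1 CPM or more and 10 had no count in any library. The share averaging 1 CPM or more was close to that of the whole table, 14366 of 56748 genes. Flg, which encodes the precursor of filaggrin, was among those at 0, and Lor, which encodes loricrin, had at most 18 counts. In the BuOE library 3 of the 9 were 2-fold or more higher and 1 lower than in the PBS library, with a median log2 ratio of 0.39 against 0.00 over all genes, of which 8.93% were higher and 4.13% lower. In the irradiated BuOE library 3 were 2-fold higher and 0 lower than in the irradiated PBS library, with a median of 0.86 against -0.01 over all genes, of which 4.47% were higher and 5.31% lower. The transglutaminase gene Tgm1, whose enzyme cross-links envelope precursors, had 171 counts in the BuOE library, against 58 in the PBS library, and 418 counts with BuOE and radiation, against 239 with PBS and radiation. Tgm1 was chosen for mention after its values were seen, and its scaled levels ran in the order PBS, BuOE, irradiated PBS, irradiated BuOE.

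Tgm3, another transglutaminase, did not run in the order of Sprr1a. It had 3.39 CPM in the BuOE library, against 0.809 in the PBS library, but 1.14 CPM in the irradiated BuOE library, against 2.02 in the irradiated PBS library. Ppl, which encodes the envelope protein periplakin, had 49.2 CPM in the BuOE library, against 23.4 in the PBS library (1.07, 0.94 to 1.20), and 54.0 CPM in the irradiated BuOE library, against 29.7 in the irradiated PBS library (0.86, 0.74 to 0.98). Cdsn, which encodes corneodesmosin, had the only ratio of the list above that of Sprr1a between the irradiated libraries (3.31, 2.72 to 4.39), on 111 counts in the BuOE library and 15 in the PBS library.

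Keratins and regulators of squamous differentiation had medians above 0 for BuOE against PBS in both pairs, and none reached the ratio of Sprr1a. Of the 22 measured members, 9 were 2-fold or more higher and 0 lower in the BuOE library than in the PBS library, with a median of 0.84, beside 8.93% and 4.13% of all genes. In the irradiated BuOE library 6 were higher and 0 lower than in the irradiated PBS library, with a median of 0.78, beside 4.47% and 5.31% of all genes. Elf3, an ETS factor of epithelia, had 79.4 CPM in the BuOE library, against 34.7 in the PBS library (1.19, 1.09 to 1.30), and 190.1 CPM in the irradiated BuOE library, against 58.9 in the irradiated PBS library (1.69, 1.62 to 1.76). The stress keratin gene Krt17 had ratios of 0.84 (0.79 to 0.89) and 1.59 (1.54 to 1.64). The basal keratin gene Krt5 had 0.58 and 1.34, while the desmosomal gene Dsg3 had 0.40 without and -0.68 with radiation. With radiation in the PBS arm the same list had 1 member 2-fold higher and 4 lower (median -0.10), beside 5.55% and 1.02% of all genes, so most of its 2-fold ratios ran against that of Sprr1a. In the BuOE arm it had 2 members 2-fold higher and 4 lower with radiation (median -0.04), beside 2.56% and 4.68% of all genes.

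S100 genes, calcium-binding proteins encoded in the same complex, had a median near that of all genes. Between the unirradiated libraries 0 of 10 measured members were 2-fold higher or lower (median 0.01), beside 8.93% and 4.13% of all genes. Between the irradiated libraries 1 was higher and 1 lower (median 0.08), beside 4.47% and 5.31%. S100a14, expressed in epithelia, had 224 CPM in the irradiated BuOE library, against 51.1 in the irradiated PBS library (2.13, 2.06 to 2.21), whereas S100a4, a gene of stromal cells, had 18.9 CPM in the irradiated BuOE library, against 45.3 in the irradiated PBS library (-1.26). S100a6 and S100a11 were the most abundant members, and S100a11 lay between 279 and 314 CPM in all libraries.

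The next list holds genes of the AP-1 and ETS families, which include known regulators of SPRR promoters. Among the listed genes Atf3 had the highest ratio in both pairs. Of 16 measured members 1 was 2-fold or more higher and 0 lower in the BuOE library than in the PBS library (median 0.42), where 8.93% of all genes were higher, so this count is near the background. With radiation 4 were higher and 0 lower in the BuOE library than in the PBS library (median 0.45), beside 4.47% and 5.31% of all genes. Atf3, a stress-induced factor, had 2279 counts in the BuOE library, against 715 in the PBS library (1.64, 1.52 to 1.76), and 3006 counts with BuOE and radiation, against 1711 with PBS and radiation (1.43, 1.34 to 1.52). The order of its scaled levels from low to high was that of Sprr1a. Junb had ratios of 0.67 (0.62 to 0.72) and 0.70 (0.66 to 0.74). Fosl2, the most abundant member, stood at 477 CPM in the BuOE library, against 521 in the PBS library, and at 494 CPM with BuOE and radiation, against 517 with PBS and radiation. The ETS gene Etv5 had 0.01 and -0.48. Elf3, an ETS gene counted with the squamous regulators above, had 1.19 and 1.69, and the second exceeded that of Atf3.

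The gp130 pathway, through which cytokines induce Sprr1a in heart muscle cells of mice and rats, had a median log2 BuOE ratio of 0.18 without radiation and 0.01 with it. Of 17 measured members 4 were 2-fold or more higher and 0 lower in the BuOE library than in the PBS library, beside 8.93% and 4.13% of all genes. In the irradiated pair 0 were 2-fold higher or lower, beside 4.47% and 5.31%. The cytokine gene Osm had 7.27 CPM in the BuOE library, against 3.30 in the PBS library (1.12), and 7.67 CPM in the irradiated BuOE library, against 4.81 in the irradiated PBS library (0.67). Il11, another gp130 cytokine, had ratios of 1.09 (1.04 to 1.14) and -0.62 (-0.67 to -0.58). Il6st, which encodes gp130, had 0.09 and -0.27, and the kinase gene Jak1 had -0.17 and -0.14.

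Genes of the axon injury response, the setting in which Sprr1a is best known outside epithelia, had another pattern. Of 22 measured members 10 were 2-fold or more higher and 1 lower in the BuOE library than in the PBS library (median 0.65), beside 8.93% and 4.13% of all genes. In the irradiated BuOE library 4 were higher and 6 lower than in the irradiated PBS library (median -0.18), beside 4.47% and 5.31% of all genes. Adcyap1, a neuropeptide gene, had 24.3 CPM in the BuOE library, against 0.168 in the PBS library, and 0.551 CPM with BuOE and radiation, against 4.28 with PBS and radiation. The most abundant members were Cd44, an adhesion receptor gene, with ratios of -0.04 and -0.17, and Klf6, a transcription factor gene, with 0.10 and 0.43. Hspb1, a small heat shock protein gene, had 0.69 (0.61 to 0.76) without radiation and 1.61 (1.55 to 1.68) with it. Between the unirradiated libraries, where Sprr1a ranked 304 among the 14366 genes averaging 1 CPM or more, 7 of 11 neuron markers reached its ratio. Between the irradiated libraries, where it ranked 9, 0 of these markers did. Their summed level was 536 CPM in the BuOE library, against 176 in the PBS library, and 132 CPM with BuOE and radiation, against 213 with PBS and radiation. Uchl1 and Nefm had the highest mean levels of these markers. In the BuOE library they had 143.9 and 39.5 CPM, against 89.5 and 46.1 in the PBS library. The irradiated BuOE library, highest in Sprr1a, was lowest in the neuron sum. Even so, 8 of the 11 markers there had a ratio above 0 against the PBS library, with a median of 0.77 beside 0.01 over all genes. Rbfox3 and Syt1 had no count in the PBS library, and none of these markers was at 0 in all libraries.

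Genes of injured or regenerating epithelium had medians above 0 in both pairs. Of 21 measured members 4 were 2-fold or more higher and 0 lower in the BuOE library than in the PBS library (median 0.33), beside 8.93% and 4.13% of all genes. Between the irradiated libraries 6 were higher and 0 lower with BuOE (median 0.40), beside 4.47% and 5.31%. The tight junction gene Cldn4 had 0.76 (0.73 to 0.79) and 1.32 (1.30 to 1.35). Clu, which encodes the chaperone clusterin, had 0.33 and -0.01, and the growth factor gene Ereg -0.08 and -0.67. Over the 8 lists, 118 measured genes other than Sprr1a were compared, and 6 of them reached the ratio of Sprr1a between the unirradiated libraries, 5 of these from the axon injury list. Between the irradiated libraries 1 of them, Cdsn, did so. For radiation in the PBS arm 5 of the 118 reached the ratio of Sprr1a, 4 of these from the axon injury list. For radiation in the BuOE arm 0 did. Among all 14366 genes averaging 1 CPM or more, Sprr1a ranked 304 between the unirradiated libraries and 9 between the irradiated ones.

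**Figure D2:**
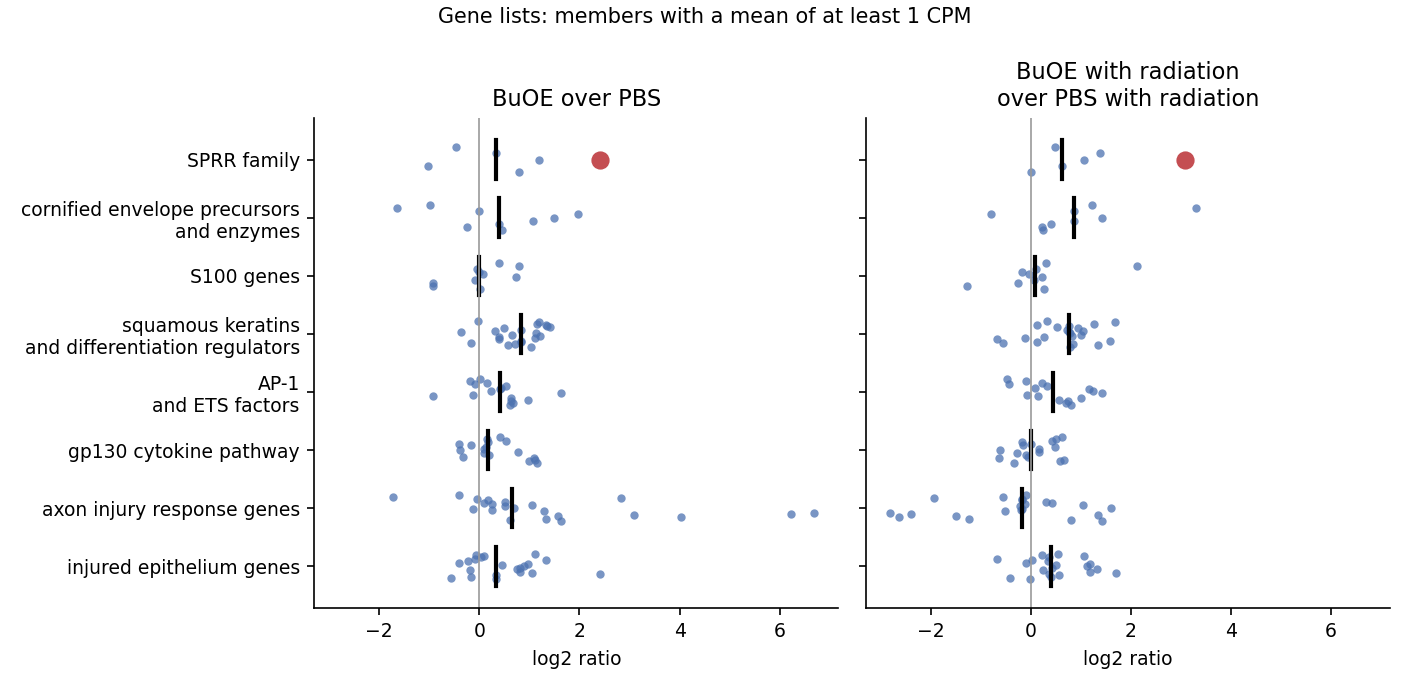
Each blue point is a list member averaging 1 CPM or more, placed by its log2 ratio, black bars are list medians, and the red point is Sprr1a. Between the irradiated libraries Sprr1a lies at 3.09 and 1 member of the 8 lists, Cdsn at 3.31, lies further right.

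Although the cells are labelled fibroblasts, all libraries held epithelial transcripts, and 10 of 11 epithelial markers had a ratio above 0 for BuOE against PBS in each pair. Their medians were 0.48 without and 0.65 with radiation, beside 0.00 and -0.01 over all genes. Without radiation 1 was 2-fold or more higher and 0 lower, beside 8.93% and 4.13% of all genes, so this count is near the background. With radiation 3 were higher and 0 lower, beside 4.47% and 5.31%. The 11 epithelial markers summed to 5281 CPM in the BuOE library, against 4274 in the PBS library (log2 ratio 0.31), and to 6404 CPM in the irradiated BuOE library, against 3895 in the irradiated PBS library (0.72). Krt8, a keratin of simple epithelia, had 1047 CPM in the BuOE library, against 924 in the PBS library, and 894 CPM with BuOE and radiation, against 776 with PBS and radiation. Scaled by the 11 markers, the log2 BuOE ratio of Sprr1a was 2.10 without radiation and 2.37 with it. The highest ratio of an epithelial marker was that of Elf3.

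Basal epithelial markers summed to 2008 CPM in the BuOE library, against 1222 in the PBS library, and to 1645 CPM with BuOE and radiation, against 1131 with PBS and radiation. Urothelial markers, which would show bladder cells, stayed between 16.7 and 33.2 CPM in sum, and Upk1a and Upk1b were their most abundant members. The 8 fibroblast markers summed to 6304 CPM in the BuOE library, against 6142 in the PBS library, and to 5453 CPM with BuOE and radiation, against 9126 with PBS and radiation. In the irradiated pair 4 of the 8 fibroblast markers were at least 2-fold lower and 0 higher, beside 5.31% and 4.47% of all genes. Among the 4 lower were Col1a1 (-1.43) and Col3a1 (-1.34), which encode fibrillar collagens. In the unirradiated pair 1 was higher and 0 lower, beside 8.93% and 4.13% of all genes.

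Of the remaining marker sums, that of macrophages was higher with BuOE in both pairs. Schwann cell markers summed to 237 CPM in the BuOE library, against 80.9 in the PBS library, and to 141 CPM with BuOE and radiation, against 163 with PBS and radiation. Macrophage markers summed to 387 CPM in the BuOE library, against 366 in the PBS library, and to 523 CPM with BuOE and radiation, against 326 with PBS and radiation. Smooth muscle markers were lower in sum in both pairs, at 520.1 CPM in the BuOE library, against 884 in the PBS library, and 622 CPM with BuOE and radiation, against 1011 with PBS and radiation. The sum follows Acta2, the actin gene of contractile cells. In both pairs 3 of the 5 members, Des among them, were 2-fold or more higher and 2 lower. Of all genes 8.93% were higher and 4.13% lower between the unirradiated libraries, and 4.47% and 5.31% between the irradiated ones. Prostate secretory markers summed to 546.5 CPM in the BuOE library, against 776 in the PBS library, and to 214 CPM with BuOE and radiation, against 549 with PBS and radiation. That sum follows Sbp, a spermine-binding protein gene, which had 13.1 CPM in the irradiated BuOE library, against 432 in the irradiated PBS library. Without radiation 5 of the 6 secretory members were 2-fold or more higher with BuOE and 0 lower, beside 8.93% and 4.13% of all genes. Between the irradiated libraries 4 were higher and 2 lower with BuOE, beside 4.47% and 5.31% of all genes. The part of these shifts in the level of Sprr1a was not tested.

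**Figure D3:**
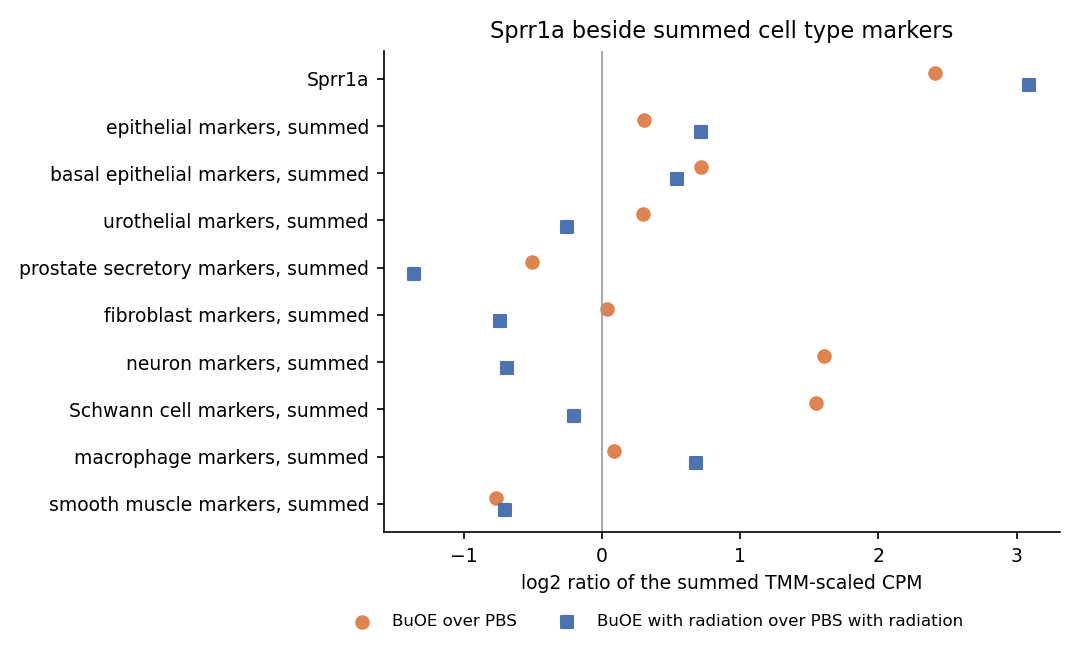
Points give the log2 ratio of the summed TMM-scaled CPM of each marker list, with Sprr1a in the top row, for BuOE over PBS (circles) and for BuOE with radiation over PBS with radiation (squares). Sprr1a lies at 2.41 and 3.09, and the epithelial sum at 0.31 and 0.72.

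The libraries held 28856043 counted reads for BuOE, 29744664 for PBS, 24996835 for irradiated BuOE and 35915448 for irradiated PBS. Mitochondrially encoded mRNAs took 2.64% of the counts in the irradiated BuOE library, against 0.864% in the irradiated PBS library. Without radiation they took 0.725% with BuOE, against 0.403% with PBS. Their order from low to high was PBS, BuOE, irradiated PBS and irradiated BuOE, so the library with the most Sprr1a was also the one with the largest mitochondrial portion. The part of this portion in the result was not tested.

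A few genes had values close to the course of Sprr1a over the 4 libraries. Likeness was measured as the root mean square distance between log2 CPM values, each centred on the gene's own mean over the 4 libraries, among 9876 genes averaging 10 CPM or more. The median distance was 1.71, and 90 genes lay within 1. The nearest of all, at 0.29, was 9530053A07Rik, a gene known by a clone name and left out of the 10 named genes together with gene models. The other 10 nearest lay between 0.38 and 0.64. In all of them the irradiated BuOE library was highest and the PBS library lowest.

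Msmb, which encodes a secreted protein of the prostate, was nearest by name (distance 0.38). It had 7.50 CPM in the BuOE library, against 2.02 in the PBS library, and 45.8 CPM with BuOE and radiation, against 8.95 with PBS and radiation. Depp1, a stress-regulated gene (0.39), had 487 counts in the BuOE library, against 65 in the PBS library, and 1696 counts with BuOE and radiation, against 525 with PBS and radiation. Its ratio between the unirradiated libraries (2.83, 2.50 to 3.27) was higher than that of Sprr1a and its ratio between the irradiated ones (2.30, 2.17 to 2.45) lower.

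Pbsn, which encodes the androgen-regulated secretory protein probasin (0.45), had 52.2 CPM in the irradiated BuOE library, against 9.31 in the irradiated PBS library. Ero1l, whose product drives disulfide bond formation in the endoplasmic reticulum (0.45), was the most abundant of the 10, with 345 CPM in the BuOE library, against 71.5 in the PBS library, and 1199 CPM with BuOE and radiation, against 339.5 with PBS and radiation. Pgf, which encodes placental growth factor (0.49), had ratios of 2.00 (1.82 to 2.21) and 1.78 (1.69 to 1.88). These 3 genes, like all others averaging 10 CPM or more, had smaller steps than Sprr1a between the irradiated libraries.

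Defb50, a beta-defensin gene (0.52), Cdh23, a cadherin gene (0.56), and Adm, which encodes the vasoactive peptide adrenomedullin (0.61), followed. Adm had 217 CPM in the irradiated BuOE library, against 62.6 in the irradiated PBS library. Car9, which encodes a carbonic anhydrase (0.61), had ratios of 3.41 (3.19 to 3.67) without and 1.71 (1.61 to 1.82) with radiation. Ndrg1, a gene of stress and differentiation (0.64), had 2.62 (2.54 to 2.71) and 1.35 (1.31 to 1.39). Between the irradiated libraries none of the 10 could reach the ratio of Sprr1a. That ratio was the highest there of all genes averaging 10 CPM or more. Likeness over 4 libraries describes these libraries and says nothing of shared control.

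**Figure D4:**
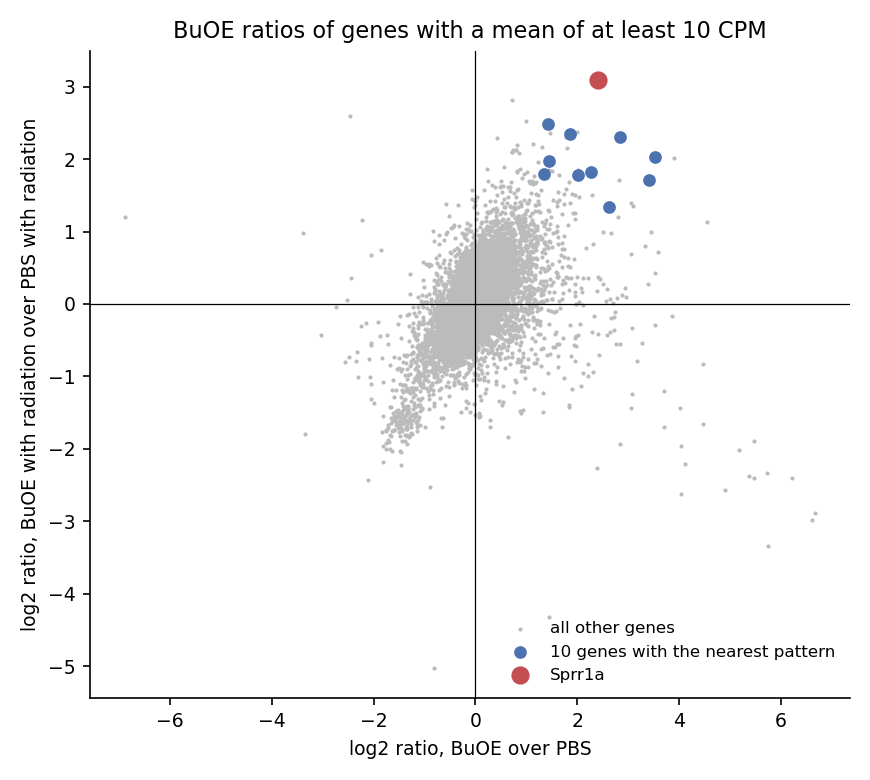
Each point is a gene averaging 10 CPM or more, placed by its log2 ratio of BuOE over PBS (horizontal) and of BuOE with radiation over PBS with radiation (vertical). Sprr1a, in red, lies at 2.41 and 3.09, the highest vertical position of the 9877 genes, and the 10 genes of nearest pattern are blue.

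**Figure D5:**
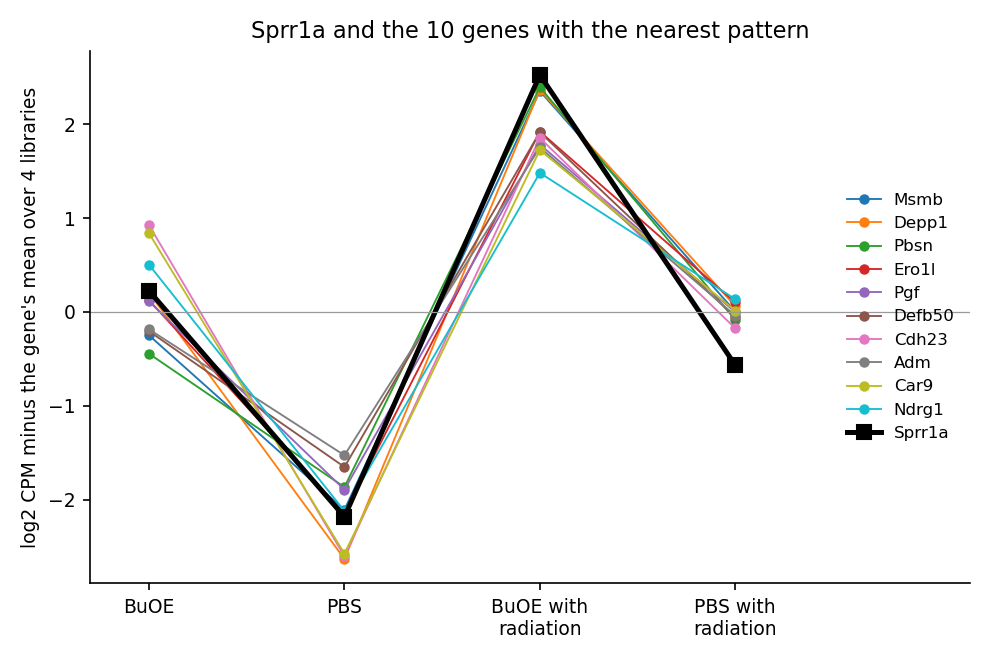
Lines join the log2 CPM of each gene in the 4 libraries after the gene's own mean is taken away, with Sprr1a in black. All 11 lines are lowest in the PBS library and highest in the irradiated BuOE library; Sprr1a lies at -2.18 and 2.52 there.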

How the data were processed

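The authors deposited whole-number counts for each gene, with 1 column for each of the 4 libraries. The submitters' processing notes name featureCounts, GRCm39, Trim Galore 0.6.4, FastQC, Salmon 1.4.0 and edgeR 4.2.2, with no role for each. The counter used for this table and its strand and multi-mapping settings are not given in the sources used here. Symbols, exon lengths and transcripts came from GENCODE M21 (GRCm38), with 4675 of 56748 gene IDs unmatched. Promoter windows came from RefSeq on GRCm38.p6, and gene order from the RefSeq gene table of that assembly.

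TMM factors (edgeR 4.0.16, R 4.3.3) were computed on the 14366 genes averaging 1 CPM or more. Log2 ratios used a prior count of 2, and intervals (SciPy 1.17.1) a 95% level. With 1 library per condition no test was made, and called means at least 2-fold. The ratio step was tested on simulated counts.

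Sprr1a and the lists were chosen with earlier results of these data known. Genes were named from Sprr1a, its family, the 2 most abundant members and the highest and lowest irradiated BuOE ratio of each list, measured neighbours, the 10 nearest patterns (gene models, pseudogenes and ribosomal genes left out, and with them, by a choice made after the rule was written, genes with a Riken clone name or not coding for protein) and the 2 most abundant markers of each cell type. Tgm1, Flg, Lor, Rbfox3, Syt1, 9530053A07Rik and the Lce genes were named after their values were seen. A gene that the rule names is not reported here. Alternatives were DESeq2 1.42.0 size factors, library size, upper-quartile factors, other prior counts, filters and folds, and scaling by epithelial markers.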

Additional observations from a re-analysis of the deposited data

Results flagged for a closer look

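For 3 genes named beside Sprr1a, ratios of at least 2-fold ran in opposite directions in the pairs compared. Each rests on 1 library per condition, and the difference was not tested. Cdsn, with 36 counts with BuOE and 114 with PBS, and after radiation 111 with BuOE and 15 with PBS, had a BuOE ratio of 3.31 with radiation and -1.64 without. Its radiation ratio was 1.93 in the BuOE arm and -3.02 in the PBS arm. Adcyap1 had a BuOE ratio of -2.82 with radiation and 6.70 without, and a radiation ratio of -5.30 in the BuOE arm and 4.21 in the PBS arm, on 5 counts in the PBS library. Tgm3 had a radiation ratio of -1.51 in the BuOE arm and 1.25 in the PBS arm. Sprr1a itself was higher in all of these pairs.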

How the results depend on the processing

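No log2 ratio of Sprr1a changed sign under any alternative run. Of the values recomputed, 104 stayed within the counting interval or within 1.5 times the count, and 51 did not. The log2 ratio of Sprr1a lay between 2.10 and 2.48 for BuOE over PBS, 2.37 and 3.10 for irradiated BuOE over irradiated PBS, 1.61 and 1.75 for radiation in the PBS arm, and 2.02 and 2.30 for radiation in the BuOE arm. Scaling by the epithelial markers gave 2.10, 2.37, 1.75 and 2.02 for these, and 4.12 for irradiated BuOE over PBS. In the irradiated pair library size alone gave 3.00, upper-quartile factors 3.04 and no filter 3.02. For radiation in the BuOE arm they gave 2.14, 2.23 and 2.25. The difference of the BuOE ratios was 0.51 by library size alone and 0.27 by the epithelial markers, the last chosen after seeing the data. Library size alone shifted all log2 ratios for radiation in the BuOE arm by -0.16 relative to TMM.

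Over the lists, a fold threshold of 1.5 gave 51 higher and 7 lower for BuOE over PBS (31 and 3 at 2-fold), 41 and 12 in the irradiated pair (25 and 7), 25 and 10 for radiation in the PBS arm (11 and 6) and 24 and 21 in the BuOE arm (13 and 14). A threshold of 3 gave 8 higher for BuOE over PBS, 6 and 4 in the irradiated pair, 5 and 2 in the PBS arm, and 5 and 8 in the BuOE arm (13 and 14 at 2-fold). A filter at 10 CPM gave 1 lower for BuOE over PBS, 7 higher in the PBS arm, and 5 higher and 8 lower in the BuOE arm. No filter gave 11 lower in the irradiated pair and 17 higher in the PBS arm.

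Over all genes, no filter gave 2850 higher and 2373 lower for BuOE over PBS, 2343 and 2241 in the irradiated pair, 2330 and 1404 in the PBS arm, and 2171 and 2009 in the BuOE arm. A filter at 10 CPM gave 485 and 297, 294 and 309, 255 and 39, and 124 and 179 in the same order. Library size alone gave 232 higher and 855 lower in the BuOE arm, against 368 and 672 with TMM. The balance of calls turned from more lower to more higher without a filter in the irradiated pair (642 and 763 with it) and in the BuOE arm, and over the lists in the BuOE arm at 1.5-fold and, with 19 and 18, without a filter. With a minimum mean of 1 CPM, 4 of the 10 nearest patterns were shared. The cause of these moves was not tested, apart from the number of genes a filter admits.

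No paired analysis was possible because each condition has 1 library. For the same reason no library was left out and no edgeR or DESeq2 test was run. Intervals cover counting error only, and the spread between mice or cultures is unknown.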
